A study of Homo sapiens with 4 samples.

Results

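The genes described here are the transcriptional factors of the Hippo pathway and a set of their known targets, measured in RPE-1 cells after 4 h and 8 h of merbarone treatment. The set holds 10 genes picked by symbol, namely YAP1, WWTR1, TEAD1, CCN1, CCN2, ANKRD1, AMOTL2, AJUBA, LATS2 and AXL, out of the 23459 genes that each count file lists by NCBI Gene identifier. All 10 were found and all 10 passed the filter for lowly expressed genes, a CPM (count scaled to library size) above 1 in 2 or more libraries, which retained 12559 genes overall. The rule that picks them uses no expression value, but the 10 genes and the gene lists used below were chosen with earlier results of these data known. Counts set beside the share of all genes are therefore descriptions.

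RPE-1 is a human epithelial line of the retinal pigment epithelium, wild type in genotype and made immortal by telomerase (hTERT). The cells spent 48 h in medium with 0.1% fetal bovine serum, which arrests them in G0/G1, and then received 200 μM merbarone, a catalytic inhibitor of type II DNA topoisomerases. There were 2 libraries of biological replicates at 4 h and 2 at 8 h, and serum starvation and the drug were common to all 4. Untreated cells were not analysed here, so time of exposure cannot be told apart from time in low-serum medium.

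YAP (encoded by YAP1) and TAZ (encoded by WWTR1) are coactivators without a DNA-binding domain of their own, and they reach promoters and enhancers by binding TEAD transcription factors. The Hippo kinase cascade restrains them: STE20-type kinases activate the LATS kinases, which phosphorylate YAP and TAZ and keep them out of the nucleus. Several targets are themselves inhibitors of the pathway, so that the circuit contains negative feedback, and in epithelial cells YAP and TAZ respond to cell density, cell shape and serum factors. RNA-Seq of polyadenylated RNA measures the transcripts of these genes, and neither the phosphorylation nor the location of YAP and TAZ was measured.

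The libraries held between 8064450 and 10324697 counts. The defining markers of differentiated retinal pigment epithelium were nearly absent: RPE65, RLBP1, LRAT, BEST1, TYR and TTR had at most 7 counts in any library. PMEL, with 7 to 12 counts per library, passed the filter, and the transcription factor genes MITF, OTX2 and PAX6 were retained as well. The leukocyte marker PTPRC and the endothelial markers PECAM1 and CDH5 had at most 8 counts per library. CD68, a lysosomal gene used as a macrophage marker, was retained and higher at 8 h (log2FC 0.39, edgeR adjusted p = 0.00298), which placed the summed level of both leukocyte markers at 56.5 and 58.9 CPM at 4 h and 68.4 and 72.3 CPM at 8 h, and its part in the results was not tested. KRT18, an epithelial keratin gene, was lower at 8 h (log2FC −0.51, edgeR adjusted p = 3.72e-05), while KRT8 and CDH2 did not pass the test (log2FC 0.03 and 0.09) and CDH1 had at most 1 count. The summed level of these 4 keratin and cadherin genes was 1094 and 1138 CPM at 4 h and 938.0 and 994.1 CPM at 8 h, and its part in the results was not tested. The 500 genes with the highest mean CPM had a median log2 fold change (log2FC) of 0.17 between 8 h and 4 h, against −0.0024 for all genes, so that abundant genes tended to be higher at 8 h. CCN1, CCN2, ANKRD1, AXL, TEAD1 and AMOTL2 belong to these 500, and values with this trend corrected are given beside the calls and signs that it changed. The 12 alternatives named in what follows are this correction, scaling by library size alone or by RLE in place of TMM (a scaling that corrects for library composition), Limma-Voom, DESeq2, 2 other filters, the replicate number as a block, and leaving out each of the 4 libraries.

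Between 4 h and 8 h, the coactivators and TEAD1 did not pass the test, and the targets moved in both directions. LATS2, AJUBA, CCN2 and AXL were higher at 8 h, and CCN1 and ANKRD1 were lower. Counted at an adjusted p below 0.05 (edgeR quasi-likelihood test, Benjamini-Hochberg over all genes tested), 4 of the 10 genes were higher and 2 were lower, where 19.9% of all genes were higher and 18.8% lower. Of the 500 most abundant genes, to which CCN1, CCN2, ANKRD1, AXL, TEAD1 and AMOTL2 belong, 48.2% were higher and 12.6% lower. With library size alone 3 of the 10 genes were higher and 3 lower, beside 13.5% and 26.2% of all genes. AXL lost its call there and WWTR1 gained one as lower. With the abundance trend corrected 2 of the 10 were higher and 2 lower, beside 18.7% and 18% of all genes, since CCN2 and AXL lost their calls. Without 4 h replicate 2, which leaves 1 library at 4 h, the log2FC was 0.20 for CCN2 and 0.18 for AXL. Only LATS2 also had an absolute log2FC above 1, a pair of thresholds that 1.45% of all genes passed upwards and 3.88% downwards. The libraries of the times did not overlap in 8 of the 10 genes, nor did they in 69.7% of all genes. In bulk RNA, fewer cells that express a gene and less RNA per cell cannot be told apart.

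**Figure D1:**
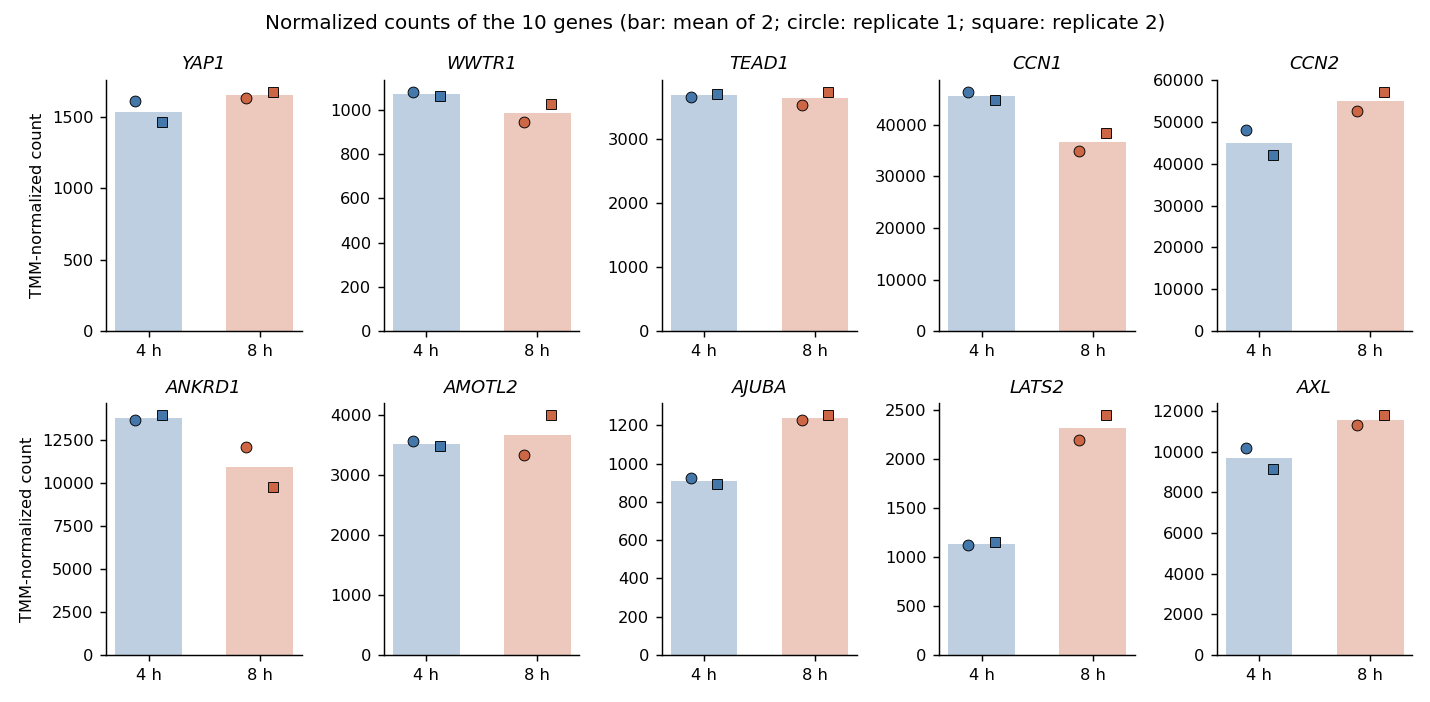
TMM-normalized counts (vertical axes, each starting at 0) of the 10 genes at 4 h (blue) and 8 h (orange), with bars for the mean of 2 libraries, circles for replicate 1 and squares for replicate 2. The 8 h libraries of LATS2, at 2198 and 2449, stand clear of the 4 h libraries at 1122 and 1155, while those of AMOTL2 and TEAD1 enclose the 4 h values.

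YAP1 (Gene ID 10413, chromosome 11, 101981178 to 102104155, plus strand, hg19) had TMM-normalized counts of 1613 and 1462 at 4 h and of 1630 and 1676 at 8 h. These values are counts divided by the effective library size and brought to the mean effective size of the 4 libraries. The 8 h libraries were above the 4 h libraries by less than the gap between the 4 h replicates. The log2FC was 0.10 (standard error, SE, 0.08, 95% interval −0.06 to 0.27, edgeR adjusted p = 0.328), so a rise above 0.27 on the log2 scale lies outside this interval. When the libraries were scaled only by their size and not by TMM, the log2FC of YAP1 was −0.0017, and with the abundance trend corrected it was −0.0058.

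WWTR1 (Gene ID 25937, chromosome 3, 149235022 to 149454501, minus strand), the gene of TAZ, had 1080 and 1062 normalized counts at 4 h and 945.0 and 1026 at 8 h. Both 8 h libraries were lower, the second by a small margin. Its log2FC was −0.12 (SE 0.08, 95% interval −0.30 to 0.05, edgeR adjusted p = 0.268), and it passed the test only when libraries were scaled by size alone (log2FC −0.23, edgeR adjusted p = 0.0375). Per kilobase of transcript, the level of YAP1 was 1.39 and 1.28 times that of WWTR1 at 4 h and 1.61 and 1.52 times at 8 h, a ratio within each library that scaling does not affect. The balance of both coactivator transcripts was on the side of YAP1 in all 4 libraries, with the higher ratios at 8 h.

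TEAD1 (Gene ID 7003, chromosome 11, 12695968 to 12966284, plus strand) encodes the DNA-binding partner of YAP and TAZ. It had 3652 and 3691 normalized counts at 4 h, against 3518 and 3729 at 8 h. The 8 h libraries enclosed those of 4 h. The log2FC of TEAD1 was −0.02 (SE 0.07, 95% interval −0.17 to 0.13, edgeR adjusted p = 0.856), which makes it the smallest change of the 10 genes. With the abundance trend corrected the log2FC was −0.16, which did not pass either (edgeR adjusted p = 0.0822).

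In the same family and its cofactors, 1 gene was higher and 0 were lower, where 19.9% of all genes were higher and 18.8% lower. Of 10 listed genes (4 TEAD genes, 4 VGLL genes and both coactivators), 8 were retained, with a median log2FC of −0.04. With library size alone 1 of the 8 was higher and 3 were lower, beside 13.5% and 26.2% of all genes. With the abundance trend corrected 1 was higher and 1 lower, beside 18.7% and 18% of all genes. TEAD2 went from 434.3 ± 11.4 to 359.4 ± 29.5 normalized counts (SD, n = 2 each), and its log2FC of −0.28 had an edgeR adjusted p of 0.0535. TEAD3 was close to it, with a log2FC of −0.23 and an edgeR adjusted p of 0.0539, and TEAD4 had a log2FC of −0.06 (edgeR adjusted p = 0.773), which was 0.02 with the abundance trend corrected. TEAD3 passed the test with that correction (log2FC −0.30, edgeR adjusted p = 0.0144). TEAD2 and TEAD3 both passed the test with library size alone or with a stricter CPM filter of 2. Per kilobase, TEAD1 was the most abundant of the family, at a mean FPKM (fragments per kilobase of transcript and per unit of depth, here of single reads in TMM-scaled libraries) of 40.7 at 4 h, followed by TEAD3 at 27.1, TEAD2 at 20.8 and TEAD4 at 12.6. VGLL4, which encodes a repressor that competes with YAP and TAZ for TEAD, rose from 814.3 ± 40.1 to 1162 ± 76.9 (SD, n = 2 each), with a log2FC of 0.51 (SE 0.09, edgeR adjusted p = 0.000136). VGLL1 and VGLL2 had at most 2 counts in any library.

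LATS2 was the gene of the set with the largest change. It encodes a kinase that phosphorylates YAP and TAZ and is at the same time one of their targets. LATS2 (Gene ID 26524, chromosome 13, 21547175 to 21635725, minus strand) had 1122 and 1155 normalized counts at 4 h, against 2198 and 2449 at 8 h. The lowest 8 h library was far above the highest 4 h library. Its level rose 2.04-fold, a log2FC of 1.03 (SE 0.08, 95% interval 0.86 to 1.20, edgeR adjusted p = 1.70e-08), which ranked 183 among the 12559 genes. Since the log2FC lies near 1, the fold-change threshold was not passed with library size alone (0.92), with the abundance trend corrected (0.92), without 4 h replicate 1 (0.999) or without 8 h replicate 2 (0.95), although the adjusted p was at most 1.12e-05 in all 12 alternatives. The annotation places LATS2-AS1, a long noncoding RNA gene, on the opposite strand over 12966 bases of LATS2. Its counts were not analysed here, and with the strand setting not given, reads of both genes cannot be told apart.

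LATS1, the paralog of LATS2, did not pass the test. It had 383.2 and 393.4 normalized counts at 4 h, against 463.3 and 462.2 at 8 h, with a log2FC of 0.25 (SE 0.10, edgeR adjusted p = 0.0614). Per kilobase, LATS2 stood at 3.89 and 3.90 times the level of LATS1 at 4 h and at 6.30 and 7.03 times at 8 h. The ratios of the times did not overlap. A permutation test of such a ratio cannot go below p = 0.333 with 2 libraries against 2, so the shift is given as a description.

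AJUBA and AMOTL2 encode further proteins that act on the LATS kinases or on YAP. AJUBA (Gene ID 84962, chromosome 14, 23440386 to 23451760, minus strand) encodes a LIM-domain protein of cell junctions that binds and inhibits LATS kinases. It had 924.3 and 895.7 normalized counts at 4 h, against 1229 and 1252 at 8 h. The replicates of AJUBA lay close together at both times, and the 8 h values were higher by 1.36-fold (log2FC 0.45, SE 0.08, 95% interval 0.28 to 0.62, edgeR adjusted p = 0.000278). The annotation holds another protein-coding model on the same strand over nearly the whole gene, and how the counting treated it is not given in the sources used here.

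AMOTL2 (Gene ID 51421, chromosome 3, 134074189 to 134094321, minus strand) encodes an angiomotin-like protein that binds YAP and holds it in the cytoplasm. It had 3571 and 3475 normalized counts at 4 h, with 3334 and 3991 at 8 h. Replicate 1 at 8 h was below and replicate 2 at 8 h above both 4 h libraries, and the spread of the 8 h replicates (SD 464.5) exceeded the difference of the means. The log2FC of AMOTL2 was 0.06 (SE 0.08, 95% interval −0.12 to 0.23, edgeR adjusted p = 0.628), and its sign turned with library size alone (−0.05) and with the abundance trend corrected (−0.09). The paralogs AMOT and AMOTL1 and the AJUBA relative LIMD1 did not pass either, while WTIP, the other AJUBA relative, was higher with a log2FC of 0.34 (SE 0.12, edgeR adjusted p = 0.0379), a call lost under 5 of the 12 alternatives.

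**Figure D2:**
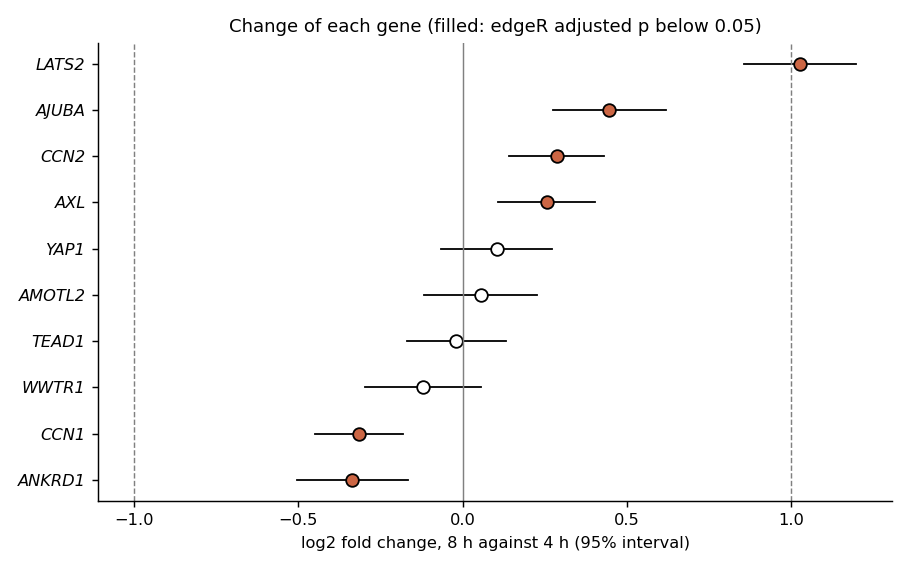
The log2FC of the 10 genes between 8 h and 4 h (horizontal axis) with 95% intervals from edgeR, ordered by size, with filled points for an adjusted p below 0.05 and dashed lines at −1 and 1. LATS2 at 1.03 is the only gene near a dashed line, and the CCN genes lie on opposite sides of 0, CCN2 at 0.29 and CCN1 at −0.32.

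CCN1 and CCN2 (formerly CYR61 and CTGF) encode secreted matrix-associated proteins, are the targets most used to read YAP and TAZ activity, and also belong to the genes that serum induces quickly. They were among the most abundant transcripts, together 1.02% and 0.941% of the 4 h counts, and 0.885% and 0.953% of the 8 h counts. Their changes had opposite signs. CCN1 (Gene ID 3491, chromosome 1, 86046444 to 86050272, plus strand) had 46354 and 44791 normalized counts at 4 h and 34877 and 38364 at 8 h. Both 8 h libraries of CCN1 were lower, and its log2FC was −0.32 (SE 0.06, 95% interval −0.45 to −0.18, edgeR adjusted p = 0.000744). The fall was found with all 12 alternatives, with a log2FC between −0.53, with the abundance trend corrected, and −0.25.

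CCN2 (Gene ID 1490, chromosome 6, 132269316 to 132272512, minus strand) had 47933 and 42071 normalized counts at 4 h, against 52621 and 57170 at 8 h. The 8 h libraries were higher, while the 4 h replicates differed by more than the nearest libraries of both times did. Its log2FC was 0.29 (SE 0.07, 95% interval 0.14 to 0.43, edgeR adjusted p = 0.00288). This call was lost with the abundance trend corrected (log2FC 0.07, edgeR adjusted p = 0.458) and without 4 h replicate 2 (log2FC 0.20, edgeR adjusted p = 0.146). Compared within each library and per kilobase, CCN2 stood at 1.01 and 0.915 times the level of CCN1 at 4 h and at 1.47 and 1.45 times at 8 h. The order of both genes in level was thus close to even at 4 h, with CCN2 above CCN1 at 8 h, and this ratio does not depend on the scaling of libraries. Among the 12241 genes with a transcript length, CCN1 went from rank 8 in FPKM at 4 h to rank 18 at 8 h, and CCN2 held rank 9 at both times.

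ANKRD1 (Gene ID 27063, chromosome 10, 92671853 to 92680844, minus strand) encodes an ankyrin repeat protein of the nucleus and the sarcomere and is a direct target of YAP and TEAD in many cell types. It had 13706 and 13952 normalized counts at 4 h and 12091 and 9810 at 8 h. Both 8 h libraries were lower, but they differed from each other by more than replicate 1 differed from the 4 h libraries. The log2FC of ANKRD1 was −0.34 (SE 0.08, 95% interval −0.51 to −0.17, edgeR adjusted p = 0.00270). Its size rests on the 8 h library used, with −0.19 without 8 h replicate 2 and −0.50 without 8 h replicate 1, and with the abundance trend corrected it was −0.52. ANKRD1 was lower in all 12 alternatives. Of its relatives, ANKRD2 had at most 2 counts in any library, and ANKRD23, with 14 to 44 counts, had a log2FC of −0.74 that did not pass the test (SE 0.32, edgeR adjusted p = 0.0722).

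CCN2 and ANKRD1 moved in opposite directions, and their promoters are shown because both hold the core letters that TEAD factors bind, GGAATG, more than once. The windows come from RefSeq on GRCh38.p14, used for sequence only, and hold the 250 bases before the annotated start, written 5′ to 3′ on the strand of the gene with each GGAATG in capitals.
CCN2 promoter, minus strand, chr6:131951373-131951622: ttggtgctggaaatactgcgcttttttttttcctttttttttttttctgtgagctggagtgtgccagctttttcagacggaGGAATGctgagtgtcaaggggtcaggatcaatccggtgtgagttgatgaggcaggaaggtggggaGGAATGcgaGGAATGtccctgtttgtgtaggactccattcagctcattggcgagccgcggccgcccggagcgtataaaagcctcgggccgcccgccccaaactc
ANKRD1 promoter, minus strand, chr10:90921088-90921337: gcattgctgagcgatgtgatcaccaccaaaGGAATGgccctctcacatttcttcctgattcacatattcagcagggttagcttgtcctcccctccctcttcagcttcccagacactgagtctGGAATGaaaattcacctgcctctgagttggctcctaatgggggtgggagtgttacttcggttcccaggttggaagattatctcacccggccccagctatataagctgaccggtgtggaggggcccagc
The CCN2 window held 3 matches, beginning 169, 104 and 95 bases before the start, and the ANKRD1 window held 2, beginning 220 and 128 bases before it.

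Of the 10 genes, 8 matched the RefSeq promoter table, with 12 windows in all, since WWTR1, AMOTL2, AJUBA and AXL have a second start. TEAD1 and CCN1 had no entry. A match to GGAATG on either strand was present in 7 of the 8 genes and in 7 of their 12 windows, with 1 match each for YAP1, AMOTL2, AJUBA, LATS2 and AXL and 0 for WWTR1. Over all 35116 windows of 300 bases in the table, from 250 bases before to 50 after a start, 14% held at least 1 match and 1.37% held at least 2. The matches of the other 5 genes are shown with 10 bases on each side, with GGAATG or its reverse complement CATTCC in capitals.
YAP1, 162 bases before the start, not past the test: ggagtgtgcaGGAATGtagcaacttg
AMOTL2, 69 bases before the second start, not past the test: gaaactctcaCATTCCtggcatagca
AJUBA, 59 bases before the second start, higher at 8 h: gaagttggctGGAATGaagccaaagc
LATS2, from base 10 after the start, higher at 8 h: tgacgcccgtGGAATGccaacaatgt
AXL, 212 bases before the second start, higher at 8 h: gactttgcacCATTCCactccctccg
These letters were present in genes that were higher, in ANKRD1, which was lower, and in YAP1 and AMOTL2. The ANKRD1 window also held 1 match to TGANTCA, a loose pattern for AP-1 sites in which N stands for any base. The matched letters were TGATTCA, 195 bases before the start, and they are not claimed to be an AP-1 site. This pattern was found in 7.71% of all windows and in no other window of the set. A match is a description of the letters and no binding was measured.

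AXL (Gene ID 558, chromosome 19, 41725128 to 41767671, plus strand) encodes a receptor tyrosine kinase of the TAM family and is a target of YAP and TEAD. It had 10192 and 9155 normalized counts at 4 h, against 11320 and 11790 at 8 h. The 8 h libraries were higher, and the difference between the nearest libraries of both times was about the size of that between the 4 h replicates. The log2FC of AXL was 0.26 (SE 0.07, 95% interval 0.11 to 0.40, edgeR adjusted p = 0.00733). The rise was not found with the abundance trend corrected (log2FC 0.08, edgeR adjusted p = 0.413), with library size alone (log2FC 0.15, edgeR adjusted p = 0.0955) or without 4 h replicate 2 (log2FC 0.18, edgeR adjusted p = 0.191).

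The ligand that AXL binds, encoded by GAS6, was abundant in the same cells. GAS6 went from 12779 ± 233.4 to 16438 ± 1708 normalized counts (SD, n = 2 each), with a log2FC of 0.36 (SE 0.07, edgeR adjusted p = 0.000623), which was 0.17 with the abundance trend corrected (edgeR adjusted p = 0.0596). PROS1, the gene of protein S, which is a ligand of the other TAM receptors, had a log2FC of −0.03 (edgeR adjusted p = 0.849). TYRO3, a TAM receptor, fell from 320.7 ± 4.22 to 243.1 ± 11.1 (SD, n = 2 each), a log2FC of −0.40 (SE 0.12, edgeR adjusted p = 0.0139) that did not pass in 4 of the 12 alternatives, which included leaving out 4 h replicate 1, 4 h replicate 2 or 8 h replicate 1. MERTK, the receptor with which retinal pigment epithelium takes up photoreceptor outer segments, had between 45 and 84 counts per library and did not pass (log2FC 0.41, SE 0.25, edgeR adjusted p = 0.208). Per kilobase AXL was the most abundant of these receptors, at a mean FPKM of 213.9 at 4 h against 4.16 for TYRO3 and 1.47 for MERTK.

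The targets were then set against a wider list of 22 YAP and TAZ target genes, which includes LATS2, AMOTL2, CCN1, CCN2, ANKRD1 and AXL. All 22 were retained, 7 were higher, 8 were lower and 7 did not pass, where 19.9% of all genes were higher and 18.8% lower. The median log2FC of the list was 0.06, against −0.0024 for all genes. With library size alone 5 were higher and 8 lower, where 13.5% of all genes were higher and 26.2% lower. With the abundance trend corrected 4 of the 22 were higher and 7 lower, where 18.7% of all genes were higher and 18% lower. Relative to the median of all genes, the list median was 0.07 both with TMM and with library size alone, and −0.09 with the trend corrected. Apart from the 10 genes, the 3 largest rises in the list were those of FJX1, PTPN14 and IGFBP3. IGFBP3, which encodes a secreted protein that binds insulin-like growth factors, rose from 6204 ± 380.2 to 8777 ± 377.6 (SD, n = 2 for each time), a log2FC of 0.50 (SE 0.07, edgeR adjusted p = 2.15e-05). PTPN14, which encodes a phosphatase that binds YAP and restrains it, rose from 1945 ± 113.5 to 2852 ± 102.6 (SD, n = 2 for each time), a log2FC of 0.55 (SE 0.08, edgeR adjusted p = 1.73e-05). FJX1 had a log2FC of 0.72 on 168 to 234 counts per library (edgeR adjusted p = 0.000739).

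Apart from the 10 genes, the 3 largest falls in this list were those of RBMS3, TGFB2 and NT5E. TGFB2, a ligand of the TGF-beta pathway, went from 3115 ± 112.8 to 2435 ± 36.4 normalized counts (SD, n = 2 for each time), a log2FC of −0.36 (SE 0.07, edgeR adjusted p = 0.000861). NT5E, the gene of the ecto-nucleotidase CD73, had a log2FC of −0.27 (SE 0.07, edgeR adjusted p = 0.00545), which did not pass without 4 h replicate 1 (edgeR adjusted p = 0.117). RBMS3, an RNA-binding protein gene with 74 to 188 counts per library, had a log2FC of −0.56 (SE 0.19, edgeR adjusted p = 0.0242), and it did not pass without 4 h replicate 1, without 8 h replicate 2, with DESeq2 or with the abundance trend corrected.

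**Figure D3:**
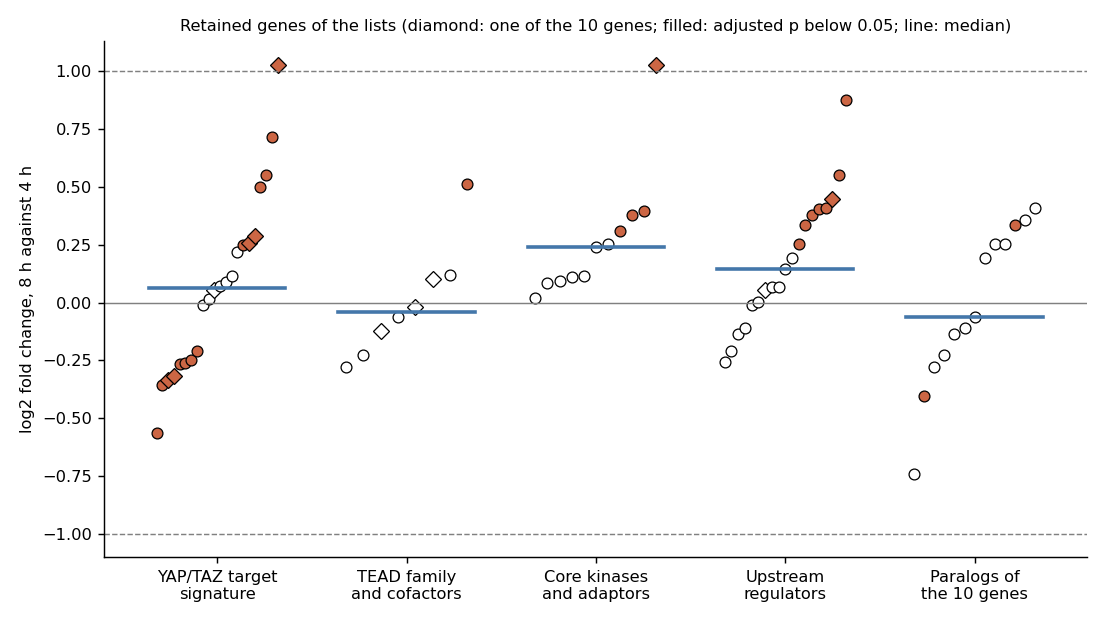
The log2FC between 8 h and 4 h (vertical axis) of the retained genes of 5 lists, ordered by size within each list, with diamonds for the 10 genes, filled points for an edgeR adjusted p below 0.05, blue lines for the list median and dashed lines at −1 and 1. Targets are filled on both sides of 0, while among core kinases and upstream regulators the filled points lie above 0. Genes shared by lists, such as TAOK1 and PTPN14, are drawn in each.

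In the kinase cascade that restrains YAP and TAZ, the genes past the test were LATS2, STK4, TAOK1 and MAP4K4, all of them higher. All 11 listed core kinases and adaptors were retained, so that 4 were higher and 0 lower beside the 19.9% and 18.8% of all genes. The median log2FC was 0.24. With library size alone 4 of the 11 were higher and 0 lower, beside 13.5% and 26.2% of all genes. With the abundance trend corrected 3 were higher and 0 lower, beside 18.7% and 18% of all genes. STK4 (MST1), a kinase that activates the LATS kinases, rose from 672.4 ± 8.56 to 885.4 ± 38.0 (SD, n = 2 for each time), a log2FC of 0.40 (SE 0.09, edgeR adjusted p = 0.00145). TAOK1, a kinase upstream of it, had a log2FC of 0.38 (SE 0.09, edgeR adjusted p = 0.00149). MAP4K4, a kinase that can act on the LATS kinases in parallel, had a log2FC of 0.31 (SE 0.07, edgeR adjusted p = 0.00222), and 0.18 with the abundance trend corrected (edgeR adjusted p = 0.0636). The other 7 genes did not pass the test. Among them was STK3 (MST2), like STK4 a kinase that activates the LATS kinases, with a log2FC of 0.02 (edgeR adjusted p = 0.924).

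Of 20 upstream and junctional regulators, AJUBA and AMOTL2 included, 19 were retained, 8 were higher and 0 were lower, with a median log2FC of 0.14, where 19.9% of all genes were higher and 18.8% lower. The lists share genes. Of those higher here, TAOK1 was also counted among the core kinases, PTPN14 among the targets and WTIP among the paralogs. With library size alone 6 of the 19 were higher and 2 lower, beside 13.5% and 26.2% of all genes. With the abundance trend corrected 7 were higher and 0 lower, beside 18.7% and 18% of all genes. FAT4, an atypical cadherin, rose from 336.5 ± 15.2 to 619.5 ± 60.4 (SD, n = 2 for each time), a log2FC of 0.88 (SE 0.11, edgeR adjusted p = 3.80e-06), the largest rise after that of LATS2 in these lists. STRN4, which encodes a subunit of the phosphatase complex that counteracts the STE20-type kinases, had a log2FC of 0.41 (SE 0.09, edgeR adjusted p = 0.00110). NF2, the gene of merlin, which brings LATS kinases to the membrane, was named after its values were seen, and had a log2FC of 0.40 (SE 0.08, edgeR adjusted p = 0.000468). Over the 59 genes of the 6 lists other than the 10, 53 were retained, 14 were higher, 7 were lower and 0 passed the fold-change threshold, against 19.9% and 18.8% of all genes higher and lower.

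Of the paralogs of the 10 genes, 13 of 16 were retained. Of these, 1 was higher (WTIP) and 1 lower (TYRO3), where 19.9% of all genes were higher and 18.8% lower. The counts changed with the processing. With RLE 3 of the 13 were higher and 1 lower, beside 2536 and 2356 of all 12559 genes. With library size alone 0 were higher and 4 lower, beside 13.5% and 26.2% of all genes. Over the alternatives that kept all 4 libraries, the paralog counts lay between 0 and 4 in either direction. In the CCN family, CCN3 had 508.6 to 662.7 normalized counts over the 4 libraries and a log2FC of 0.26 (SE 0.10, edgeR adjusted p = 0.0516), CCN5 had 18 to 28 counts per library, CCN4 was listed at 0 in all 4 libraries and CCN6 had 1 count in 1 library. CCN1 and CCN2 thus supplied nearly all CCN reads.

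**Figure D4:**
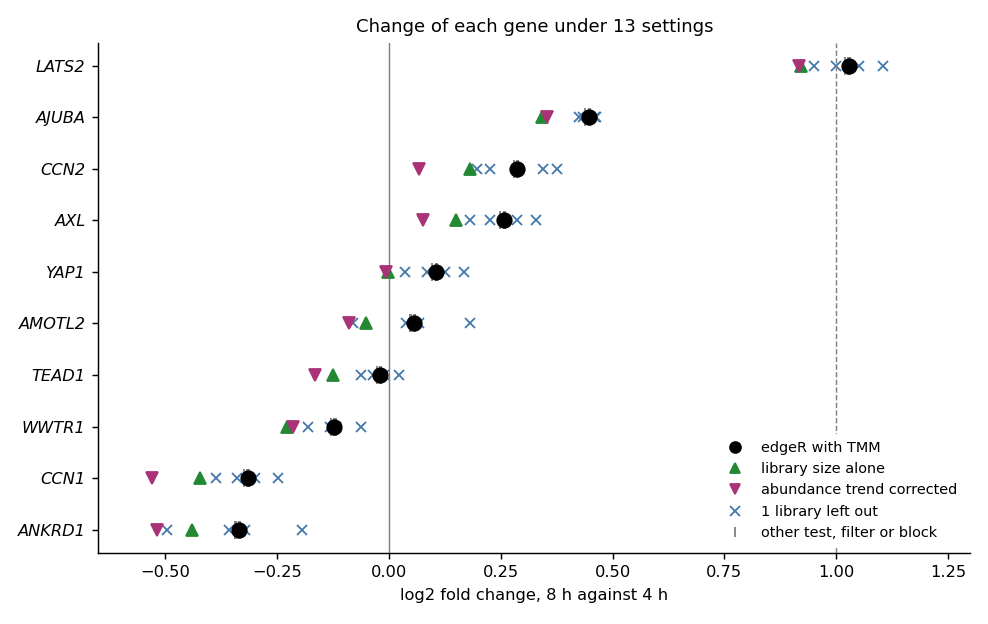
The log2FC of the 10 genes (horizontal axis) under 13 settings, with black circles for edgeR with TMM, green triangles for library size alone, purple triangles for the abundance trend corrected, crosses for 1 library left out and bars for another test, filter or block. The purple triangles of CCN2 (0.07) and AXL (0.08) lie near 0, while CCN1 and ANKRD1 stay below 0 and LATS2 and AJUBA above 0 in every setting.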

How the data were processed

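RNA-Seq libraries (TruSeq Stranded mRNA, single reads) of RPE-1 cells were quality filtered with FASTQC and mapped to hg19 with Bowtie 1.2.0 by the authors, who kept reads with a single position. The deposited values are raw counts per gene, 1 file per library. The counting tool, annotation and strand setting are not given in the sources used here. Bowtie aligns without gaps, so reads across splice junctions are lost. Counts on the antisense genes over WWTR1, TEAD1 and CCN2 that were matched by symbol were at most 5 per library. Other antisense genes annotated over WWTR1 and TEAD1, and those over LATS2, YAP1 and AXL, were not matched by symbol. Their counts were not analysed here.

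Genes were retained if their CPM exceeded 1 in 2 or more libraries. After TMM scaling, the times were compared by the quasi-likelihood test of edgeR 4.0.16 (R 4.3.3) with time as the only term, on all retained genes with Benjamini-Hochberg adjustment. Limma-voom (limma 3.58.1), the test of the paper, and DESeq2 1.42.0 were alternatives, as were other scalings, filters, a replicate block, a loess correction of each library for its trend with mean log2-CPM, and leaving out each library. The standard error is the log2FC divided by the square root of F. Tests were tried on simulated counts. Depth was 8064450 to 10324697 counts, with a biological coefficient of variation of 6.52%. With 2 libraries per time, the adjusted p-values borrow their estimate of spread from all genes.

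Symbols came from the RefSeq gene table, and positions and canonical transcript lengths from GENCODE on GRCh37, the assembly of hg19. FPKM used these lengths, with no correction for the lost junction reads. Levels and ratios per kilobase that compare different genes are therefore approximate. Named genes are the 10 genes, their paralogs, the AXL ligands and, in each list, genes past both thresholds or the up to 3 largest rises and falls past an adjusted p of 0.05. NF2 and STK3 were named in addition, after their values were seen. The 10 genes and the lists were chosen with earlier results of these data known.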

Additional observations from a re-analysis of the deposited data

How the results depend on the processing

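Of the 120 values of log2FC of the 10 genes under 12 alternatives, 108 kept their direction and their side of the threshold, 5 lost the call, 1 gained it and 6 turned sign. CCN1, ANKRD1, AJUBA and LATS2 kept both in all 12. The turned signs belonged to genes that did not pass: YAP1 with library size alone (−0.0017) and with the abundance trend corrected (−0.0058), and AMOTL2 in the same settings (−0.052 and −0.090). TEAD4 turned to 0.022 with the trend corrected. With 1 library left out, signs turned within the ranges of TEAD1 (−0.062 to 0.022), AMOTL2 (−0.079 to 0.18), TEAD4 (−0.20 to 0.085), CCN5 (−0.14 to 0.77) and PROS1 (−0.12 to 0.058). The cause was not tested. Library size alone moved the median log2FC of all genes to −0.11, left 0 of the 10 genes past both thresholds and gave 12 list genes lower in place of 7. Of all genes 3289 were then lower in place of 2367, and 766 passed both thresholds in place of 669. With the trend corrected 2 of the 10 were higher in place of 4 and 0 passed both thresholds. Of all genes 2350 were then higher in place of 2500, and 600 passed both thresholds in place of 669. DESeq2 gave 2 list genes lower and 1490 of all genes lower in place of 2367. With 1 library left out, the lone library being assumed to vary like the other time, between 2 (without 4 h replicate 2) and 4 of the 10 genes were higher, and 0 (without 4 h replicate 1 or 8 h replicate 2) or 1 passed both thresholds. Of the list genes between 1 (without 4 h replicate 1) and 7 were lower, with 3 without 4 h replicate 2. Of all genes between 1605 and 2534 were higher and between 1509 and 2294 lower, the lowest counts coming without 4 h replicate 1.

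The replicate numbers are shared by the times. With the replicate block, 691 genes passed both thresholds against 669 without it, and no call of the 10 genes changed, while TEAD2, TEAD3, LATS1, AMOTL1 and CCN3 passed the adjusted p. Deviations of same-numbered libraries had a correlation of 0.048 over all genes, so the numbers were not taken as pairs.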
